A study of Sus scrofa with 23 samples.

Results

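The RNAs of 10 glycolysis enzymes (HK1, HK2, GPI, PFKL, PFKM, PFKP, ALDOA, GAPDH, PGK1 and PKM) were followed in kidney cortex of 23 newborn pigs. They were chosen by symbol from 26687 annotated genes, and all 10 were present and passed the filter on low counts that left 20921 genes for testing. The pigs came from matings of CFTR+/- animals and were studied within hours of birth. By label, 11 pigs were CFTR-/- (CF), 6 were CFTR+/- (HET) and 6 were wild-type (WT). WT and HET pigs together formed the 12 non-CF pigs, the comparison group that the study's methods name. Each library came from another pig, total RNA was sequenced after depletion of ribosomal RNA, and the labels gave neither sex nor litter. CF, cystic fibrosis, is the disease caused by loss of the CFTR anion channel. Pigs without the channel serve as an animal model of it.

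Glycolysis splits glucose into pyruvate in the cytosol and yields ATP and NADH. Hexokinase traps glucose as glucose 6-phosphate, phosphofructokinase makes the committed step, aldolase cleaves the sugar, and phosphoglycerate kinase and pyruvate kinase return ATP. In the kidney cortex, proximal tubule cells burn mostly fatty acids and lactate and make glucose, while distal segments, endothelium and dividing cells use more glycolysis. In RNA of bulk cortex, fewer cells of one type and less RNA per cell cannot be told apart.

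Libraries held 32901281 to 52952273 estimated counts, of which the 10 enzymes took 0.190% to 0.403%. Levels are given as CPM, counts scaled to a common library total after TMM (a correction of library size for composition), and a value after ± is the SE for a log2 fold change and the SD for a level. CFTR itself had 1.27 to 3.67 CPM in WT, 9.41 to 17.5 CPM in HET and 12.5 to 23.5 CPM in CF pigs. CFTR RNA was therefore not lost in the libraries labelled CF, and every direction below rests on the labels. Against WT, CFTR was higher by 3.14 on the log2 scale in CF and by 2.47 in HET pigs, and both differences passed the test used below. Pigs 7 to 11 and 19 to 23 (the later-numbered pigs, 5 CF, 3 HET and 2 WT) stood apart from pigs 1 to 6 and 12 to 18 (the earlier-numbered pigs, 6 CF, 3 HET and 4 WT) on axis 2 when all genes were arranged by multidimensional scaling. That division came from the data, and the labels give no reason for it. Axis 1 also split the libraries, with a gap from -0.45 to 0.19, and 5 of 11 CF, 1 of 6 HET and 4 of 6 WT pigs were on its negative side. The part of this split in the results below, HET against WT above all, was not tested.

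The PKM gene, which codes for the pyruvate kinase of most tissues, needed its transcripts read one by one. In the pig annotation (Sscrofa11.1) it lies at chr7:60971807-61032780 on the plus strand and has 22 transcripts. Of these, 9 carry an upstream and 4 a downstream version of one exon of pyruvate kinase, alternative exons of equal length. Among the transcripts annotated with pyruvate kinase as product, 8 carry the upstream and 3 the downstream exon. By its place, the upstream exon is the one of the muscle-type enzyme (M1) and the downstream exon the one of the M2 enzyme of embryonic and dividing tissue, although the annotation does not use those names. The remaining transcripts are annotated with a product of PARP6, the neighbouring poly(ADP-ribose) polymerase gene. Of the PARP6-product transcripts, 9 carry neither exon and 2 join PARP6 to pyruvate kinase exons, one with each version. The exons below are shown because the M1-type and M2-type transcripts were told apart by which of them they carry. They were read 5′ to 3′ from the plus strand of Sscrofa11.1 at chr7:61028764-61028930 and chr7:61029321-61029487. Each has 167 bases, and capitals mark the 66 positions at which they differ (60.48% identical).
Upstream exon: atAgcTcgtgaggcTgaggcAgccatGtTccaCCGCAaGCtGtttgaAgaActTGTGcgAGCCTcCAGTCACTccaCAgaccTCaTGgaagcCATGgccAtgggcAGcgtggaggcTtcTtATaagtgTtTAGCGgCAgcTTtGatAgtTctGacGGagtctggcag
Downstream exon: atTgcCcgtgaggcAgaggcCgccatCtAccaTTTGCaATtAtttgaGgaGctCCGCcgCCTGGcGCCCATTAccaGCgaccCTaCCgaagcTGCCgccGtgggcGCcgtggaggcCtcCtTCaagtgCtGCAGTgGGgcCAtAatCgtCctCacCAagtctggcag

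The enzymes differed far more from one another than between labels. Levels of different genes are compared only per length, as CPM per kb of effective transcript length. GAPDH, which makes the NADH of the pathway, led with 1145 ± 254 CPM per kb (SD, n = 23). ALDOA, the widely expressed aldolase, had 294 ± 61.5 and PKM 157 ± 26.7 CPM per kb. GPI, which turns glucose 6-phosphate into fructose 6-phosphate, had 145 ± 27.8 and PGK1, the first ATP-forming enzyme, 139 ± 28.2. HK1 followed with 43.9 ± 7.20, PFKL with 26.7 ± 4.92, PFKM with 21.1 ± 2.63, PFKP with 20.3 ± 2.88 and HK2 with 0.662 ± 0.222 CPM per kb. GAPDH was above ALDOA, ALDOA above PKM, PGK1 above HK1, HK1 above PFKL and PFKP above HK2 in 23 of 23 pigs. PKM was above GPI in 19 pigs and PFKL above PFKM in 21. The order of GPI and PGK1, and that of PFKM and PFKP, held in 14 of 23 pigs each, so these neighbours did not separate beyond their spread. With the pyruvate kinase transcripts alone, PKM had 146 ± 26.7 CPM per kb and was above GPI in 13 pigs.

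**Figure D1:**
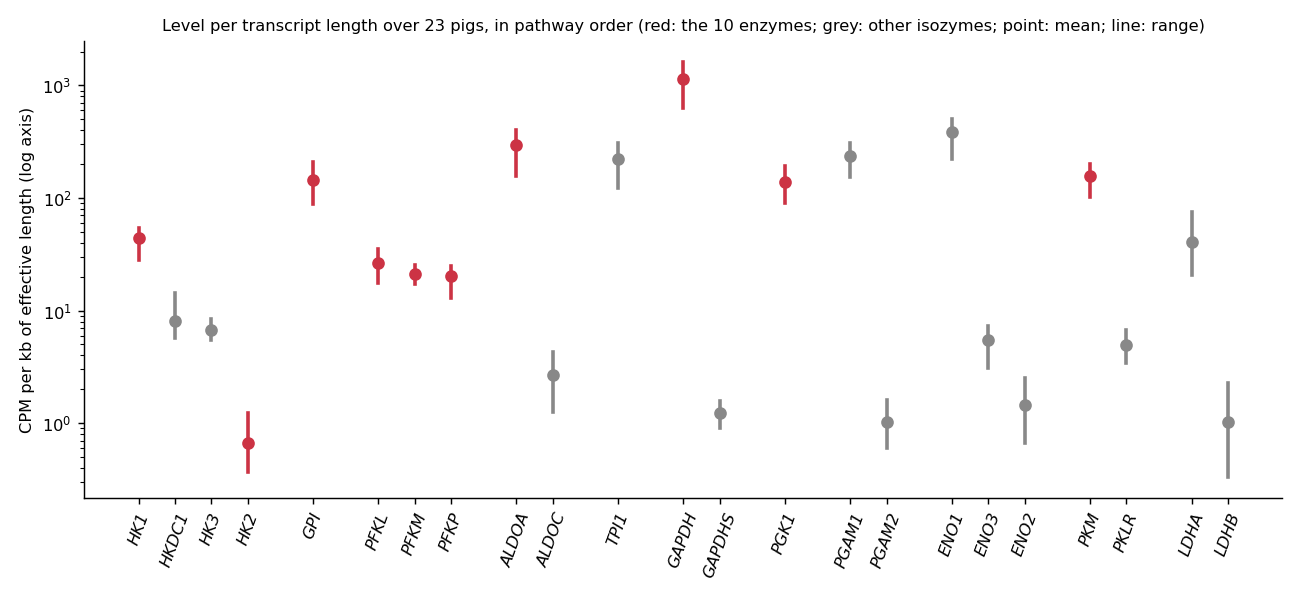
Level per transcript length (CPM per kb of effective transcript length, log axis) of the 10 enzymes (red) and of other isozymes and enzymes (grey) in pathway order; points are means over 23 pigs and lines the range. HK2 lies lowest of the 10 at 0.662 and GAPDH highest at 1145.

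HK2, the inducible muscle and tumour hexokinase, was also below the related enzymes HKDC1 (8.11 ± 2.12 CPM per kb) and HK3 (6.78 ± 0.894 CPM per kb) in all 23 pigs. HK1 was above HKDC1 in 23 of 23. The RNAs of the 3 phosphofructokinase subunits were close to balanced, with means of 39.0% PFKL (liver type), 31.1% PFKM (muscle type) and 29.9% PFKP (platelet type). The pyruvate kinase transcripts of PKM held 95.2% to 97.99% of pyruvate kinase RNA, against PKLR, the liver and red cell form.

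Between CF and non-CF pigs, each of the 10 enzymes had a lower estimate in CF, by 0.11 to 0.37 on the log2 scale, and none passed the test. The median log2 fold change of the 10 was -0.24, beside -0.0005 over all genes tested, of which 50.2% had a lower value. DESeq2, run as an alternative, called HK1, PFKM and PKM, 3 of 10, where it called 2.46% of all genes. Each gene was tested by quasi-likelihood in edgeR, with p adjusted over all 20921 genes after Benjamini and Hochberg and a limit of 0.05. The test called 0 of the 10, where 0.349% of all genes were called. At an unadjusted p under 0.05, HK1, HK2, PFKM, ALDOA, GAPDH and PKM were lower, 6 of 10, where 6.36% of all genes were lower at that level. These counts describe genes that vary together between pigs, so they are not 10 independent results. The CF and non-CF ranges overlapped for every one of the 10. Over all genes tested they stood apart for 0.00478%. The p-values measure the spread between these pigs, whose litters are not known.

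**Figure D2:**
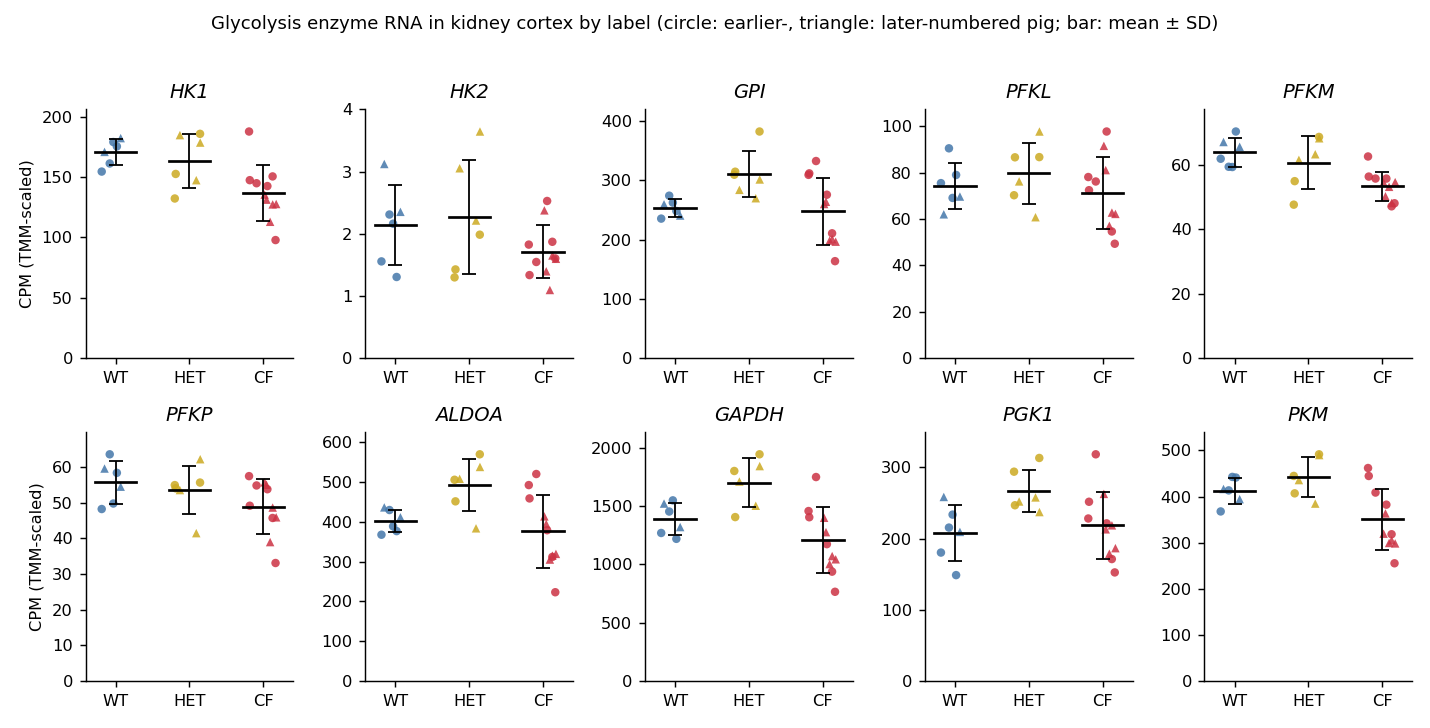
CPM (TMM-scaled, axes from 0) of each enzyme in the 6 WT, 6 HET and 11 CF pigs; circles are earlier- and triangles later-numbered pigs, and the bars show mean ± SD. Most CF points of HK1, PFKM, GAPDH and PKM sit below the non-CF median (10, 10, 10 and 9 of 11), and the CF and non-CF ranges overlap for each enzyme.

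HK1, the hexokinase bound to mitochondria in most tissues, lies at chr14:72383328-72460927. It ran from 155 through a median of 173 to 182 CPM in WT pigs, from 132 through 166 to 186 CPM in HET pigs and from 97.9 through 136 to 188 CPM in CF pigs. Of 11 CF pigs, 10 were below the non-CF median, and the exception, pig 4, was the highest of all 23. The log2 fold change against non-CF was -0.29 ± 0.08 (SE; adjusted p = 0.0966, edgeR). Against WT it was -0.32 ± 0.10 (adjusted p = 0.132, edgeR), and 10 of 11 CF pigs were below the whole WT range. Without pig 4 the difference from non-CF pigs was -0.34 and passed the test (adjusted p = 0.0280, edgeR). HK1 passed in only this 1 of the 23 fits that left out 1 pig, with adjusted p up to 0.168 (edgeR). In that fit, without pig 4, 0.97% of all genes passed, and with 1 pig left out at a time 0.0956% to 0.97% did.

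HK2 (chr3:68155656-68231187) was the weakest of the 10, with 53 to 169 counts per library. It had 1.30 to 3.12 CPM in WT (median 2.24), 1.30 to 3.64 CPM in HET (median 2.10) and 1.096 to 2.53 CPM in CF pigs (median 1.60). Its CF estimate was -0.37 ± 0.18 (adjusted p = 0.359, edgeR), with 9 of 11 CF pigs below the non-CF median but 10 of 11 inside the non-CF range. It was also the most variable of the 10, with an SD within labels of 0.44 on the log2 CPM scale, larger than that of 81.6% of genes.

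GPI (chr6:44038374-44069331) had 235 to 274 CPM in WT (median 254), 269.6 to 382 CPM in HET (median 305) and 163 to 332 CPM in CF pigs (median 259.8). The CF median was thus between those of WT and HET, and the CF range was the widest. Against non-CF the log2 fold change was -0.19 ± 0.11 (adjusted p = 0.467, edgeR).

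The phosphofructokinase subunits assemble into one tetrameric enzyme, the main point of control of the pathway. PFKM (chr5:78475473-78525052) had 59.2 to 70.2 CPM in WT (median 63.7), 47.6 to 68.6 CPM in HET (median 62.3) and 47.0 to 62.5 CPM in CF pigs (median 54.4). Of 11 CF pigs, 10 were below the lowest WT pig and 10 below the non-CF median. PFKM had the smallest spread of the 10 (SD within labels 0.14 on the log2 CPM scale, with 12.2% of genes smaller) and the smallest p, with -0.23 ± 0.06 against non-CF (adjusted p = 0.0865, edgeR). Against WT it was -0.26 ± 0.07 (adjusted p = 0.0952, edgeR). Against non-CF it passed the limit without CF pig 4 (adjusted p = 0.0438, edgeR). It also passed without HET pig 13, the lowest of the non-CF pigs (adjusted p = 0.0335, edgeR), a fit in which 0.679% of all genes passed. These were the only 2 of the 23 fits that left out 1 pig in which PFKM passed, with adjusted p up to 0.158 (edgeR).

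PFKL (chr13:207167287-207191688) and PFKP (chr10:67022652-67082336) showed less. PFKL had medians of 72.6 CPM in WT, 81.4 CPM in HET and 72.4 CPM in CF pigs, whose values ran from 49.3 to 97.7 CPM. Its CF estimate was -0.11 ± 0.11, with a 95% interval of -0.33 to 0.11, and 6 of 11 CF pigs were below the non-CF median. PFKP had medians of 56.4 CPM in WT, 54.5 CPM in HET and 49.1 CPM in CF pigs, whose values ran from 33.1 to 57.4 CPM. Its CF estimate was -0.16 ± 0.08, with an interval of -0.33 to 0.01.

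ALDOA (chr3:18246036-18260167) had 367 to 436 CPM in WT (median 399.9), 383 to 569 CPM in HET (median 507) and 223 to 519.9 CPM in CF pigs (median 379). WT pigs were tightly grouped, and both other labels reached beyond them. Against non-CF the log2 fold change was -0.25 ± 0.12 (adjusted p = 0.333, edgeR), against WT -0.10 ± 0.13 and against HET -0.39 ± 0.13.

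GAPDH (chr5:64129678-64135194), often used as a reference gene, had 1218 to 1547 CPM in WT (median 1385), 1404 to 1942 CPM in HET (median 1754) and 764 to 1747 CPM in CF pigs (median 1172). Against HET, 9 of 11 CF pigs were below the whole HET range, and against WT 6 were below the whole WT range. The log2 fold change was -0.36 ± 0.11 against non-CF (adjusted p = 0.138), -0.49 ± 0.13 against HET (adjusted p = 0.220) and -0.20 ± 0.13 against WT (adjusted p = 0.514, edgeR). GAPDH has many processed copies in mammalian genomes, and how the authors' pseudoalignment shared reads among them was not tested.

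PGK1, on the X chromosome (62187472-62210321), had 149 to 259 CPM in WT (median 212), 237 to 313 CPM in HET (median 255) and 153 to 319 CPM in CF pigs (median 219). It had the smallest difference in the labels CF and non-CF apart from PFKL, -0.12 ± 0.12 with an interval of -0.36 to 0.12. It was the one enzyme with a higher estimate in CF than in WT pigs, 0.07 ± 0.13. The sex of the pigs is not in the labels, so sex was not weighed for this X-linked gene.

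PKM had 368 to 443 CPM in WT (median 415), 385 to 492 CPM in HET (median 440.3) and 255 to 462 CPM in CF pigs (median 319). Of 11 CF pigs, 7 were below the lowest non-CF pig. The log2 fold change against non-CF was -0.29 ± 0.09 (adjusted p = 0.116, edgeR), and -0.33 without CF pig 4 (adjusted p = 0.0466, edgeR). PKM passed in only this 1 of the 23 fits that left out 1 pig, with adjusted p up to 0.204 (edgeR).

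Permutation tests of single enzymes on mean log2 CPM, two-sided and not adjusted over the 40 that were run, gave p = 0.00185 for HK1, 0.00188 for PFKM, 0.00238 for PKM and 0.00461 for GAPDH in CF against non-CF pigs. They gave 0.0329 for ALDOA and 0.0652 to 0.334 for HK2, GPI, PFKL, PFKP and PGK1.

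In HET against WT pigs no enzyme passed the test. Of the 10 enzymes, 7 had a higher and 3 a lower estimate in HET, where 51.2% of all genes were lower. PGK1 was 0.36 ± 0.15 higher on the log2 scale, ALDOA 0.29 ± 0.15, GAPDH 0.29 ± 0.15 and GPI 0.29 ± 0.14. All 6 HET pigs were above the WT median for GPI, GAPDH and PGK1. HK1, PFKM and PFKP had estimates of -0.06 ± 0.11, -0.07 ± 0.09 and -0.05 ± 0.12. The adjusted p (edgeR) ran from 0.587 upwards, and 0.00478% of all genes were called, which was 1 gene, CFTR. In exact permutation tests, not adjusted over the 10 enzymes, p was 0.00433 for GPI, 0.0152 for PGK1, 0.0173 for ALDOA, 0.0195 for GAPDH and 0.197 to 0.890 for the rest. On a TPM scale the median of all genes moved by -0.10 in this comparison, and HK2, PFKL and PKM then had estimates just below 0. In CF against HET pigs the 10 estimates were all negative, from -0.13 to -0.49, with a median of -0.31 beside 0.01 over all genes, of which 48.6% were lower. In edgeR 0 of 10 passed the test, as did 0.0% of all genes, and 7 of 10 had an unadjusted p under 0.05 with a lower value, where 4.34% of all genes did. In CF against WT pigs 9 of 10 were negative, where 50.4% of all genes were, with a median of -0.19. In edgeR 0 of 10 passed the test, where 0.349% of all genes did. For CF against WT, DESeq2 passed PFKM alone, where 2.75% of all genes passed, and limma on log2 TPM passed HK1 alone, where 0.602% did. On the TPM scale the median of all genes moved by -0.07 in CF against WT, and 71.3% of all genes were lower. The part of that shift in the HK1 call was not tested. In edgeR without CF pig 4, HK1 alone passed, where 0.97% of all genes did. These comparisons share libraries and are not independent of one another.

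The CF estimates were more negative in the later-numbered pigs for 8 of 10 enzymes, where 49.9% of all genes were. In the 10 later-numbered pigs alone, HK1 was -0.44 ± 0.08 (adjusted p = 0.0170), PFKM -0.31 ± 0.07 (adjusted p = 0.0285) and PKM -0.41 ± 0.09 (adjusted p = 0.0310, edgeR). These 3 passed the test, where 2.28% of all genes did and 1.05% did with a lower value. With the number set as a term in the fit of all pigs, 0 of the 10 passed, where 0.707% of all genes did. In the later-numbered pigs HK1 had 131, 113, 136, 128 and 127 CPM in the 5 CF pigs, against 147, 185 and 179 CPM in the HET and 171 and 182 CPM in the WT pigs. PFKM had 50.2, 53.1, 54.4, 54.5 and 48.1 CPM in CF, against 63.2, 61.5 and 68.1 CPM in HET and 67.0 and 65.5 CPM in WT pigs. PKM had 363, 299, 319, 298 and 305 CPM in CF, against 385, 436 and 490.03 CPM in HET and 416 and 394 CPM in WT pigs. For these 3 the CF values did not overlap with the non-CF values, which was true, with CF lower, for 2.39% of all genes.

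In the 13 earlier-numbered pigs alone, 0 of the 10 and 0.0% of all genes passed edgeR's test, where 9.15% of all genes had an unadjusted p under 0.05 and none of the 10 did. HK1 was -0.17 ± 0.12, PFKM -0.16 ± 0.10, PKM -0.19 ± 0.12 and GAPDH -0.29 ± 0.17. HK2 went from 0.04 ± 0.19 in these pigs to -0.82 ± 0.21 in the later-numbered pigs. The difference between those values was -0.88 ± 0.29 (unadjusted p = 0.0058, adjusted p = 0.267, edgeR), and 0 of the 10 enzymes passed the test of such a difference, where 0.0191% of all genes did. HK2 had 1.30 to 2.31 CPM in the earlier-numbered non-CF pigs and 2.21 to 3.64 CPM in the later-numbered ones, whereas CF pigs had 1.34 to 2.53 and 1.096 to 2.38 CPM.

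**Figure D3:**
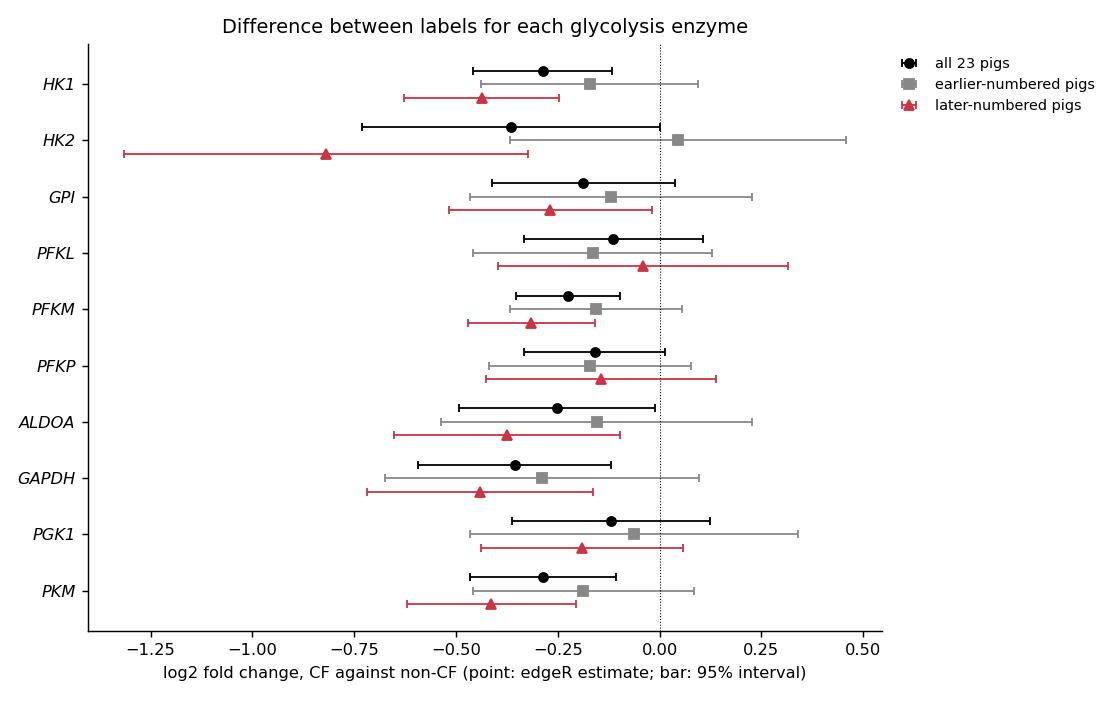
Log2 fold change of each enzyme in CF against non-CF pigs (edgeR estimate with 95% interval) in all 23 pigs (black), the 13 earlier-numbered pigs (grey) and the 10 later-numbered pigs (red). Intervals of the earlier-numbered pigs include 0 for each enzyme, and those of the later-numbered pigs exclude it for HK1, HK2, GPI, PFKM, ALDOA, GAPDH and PKM, where 8.89% of all genes had a lower value at an unadjusted p under 0.05.

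The PKM count was resolved into its parts. Transcripts with a PARP6 product held 6.94% to 14.04% of it, including 0.532% to 3.39% in transcripts that join PARP6 to pyruvate kinase exons. PARP6-product transcripts had 37.3 ± 3.96 CPM in WT (SD, n = 6), 36.4 ± 3.20 CPM in HET (n = 6) and 36.4 ± 2.72 CPM in CF pigs (n = 11). The pyruvate kinase transcripts had 375 ± 26.7 CPM in WT, 406 ± 45.6 CPM in HET and 314 ± 65.8 CPM in CF pigs. The CF estimate was -0.31 ± 0.09 for the pyruvate kinase transcripts (adjusted p = 0.113) and -0.02 ± 0.06 for the PARP6-product transcripts (adjusted p = 0.936, edgeR). PARP6-product transcripts made up 8.69% ± 1.19 of the PKM count in non-CF (SD, n = 12) and 10.7% ± 1.99 in CF pigs (n = 11). That difference of 1.99 percentage points had p = 0.00776 in a two-sided permutation test, which was not adjusted and not planned.

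Of pyruvate kinase TPM, the downstream (M2-type) exon printed above held 93.0% to 95.7% in WT, 92.4% to 95.9% in HET and 90.6% to 96.5% in CF pigs. The means were 94.6% ± 1.11 (SD, n = 12) in non-CF and 93.7% ± 1.76 (n = 11) in CF pigs, and their difference of -0.82 percentage points was within the spread (permutation test, two-sided, p = 0.195). These shares rest on kallisto's division of reads among transcripts that overlap in other exons.

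**Figure D4:**
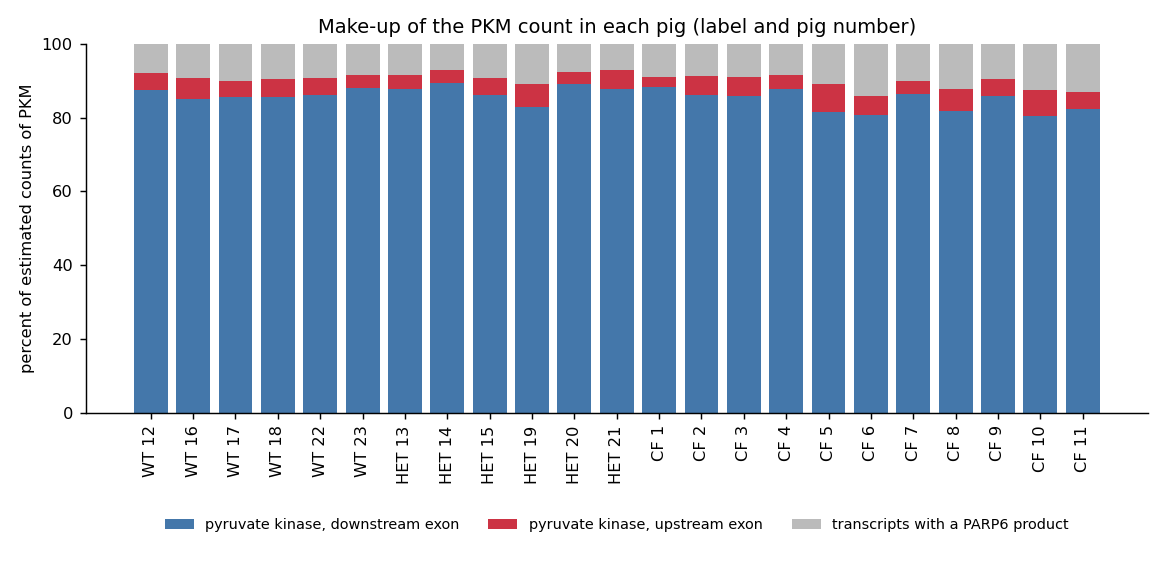
Percent of the estimated counts of PKM in each pig (bars, by label and pig number) from pyruvate kinase transcripts with the downstream exon (blue), with the upstream exon (red) and from transcripts with a PARP6 product (grey). Blue dominates in each pig, and grey ranges from 6.94% to 14.04%.

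The rest of the pathway was followed with 18 further enzymes, of which 17 were tested (PGK2, the testis form, had at most 1 count). In CF against non-CF pigs 15 of 17 had a lower estimate and 2 passed the test, where 50.2% of all genes were lower and 0.349% passed. The median was -0.13. The counts for the lists that follow are to be read against the same shares. ENO3, the muscle enolase, was lower by 0.45 ± 0.10 on the log2 scale (adjusted p = 0.0422), with 3.97 to 7.32 CPM in CF and 6.85 to 9.50 CPM in non-CF pigs. ALDOC, the brain aldolase, was lower by 0.72 ± 0.16 (adjusted p = 0.0479, edgeR), with 1.90 to 4.83 CPM in CF and 3.05 to 6.45 CPM in non-CF pigs. ENO3 is a minor isozyme here, with 0.862% to 1.87% of enolase RNA per length. Both calls sat at the limit: over the fits that left out 1 pig, ENO3 passed in 10 of 23 and ALDOC in 8, with adjusted p up to 0.0901. Neither passed within a number set: ENO3 had -0.44 ± 0.14 in the earlier- and -0.46 ± 0.14 in the later-numbered pigs (adjusted p = 0.335 and 0.115), and ALDOC -0.69 ± 0.20 and -0.73 ± 0.22 (adjusted p = 0.299 and 0.103, edgeR). LDHB, the heart-type lactate dehydrogenase, had -0.61 ± 0.22 (adjusted p = 0.208). LDHA, the muscle type and named after its values were seen, had -0.44 ± 0.20 in all pigs (adjusted p = 0.307), -0.22 ± 0.25 in the earlier-numbered pigs (adjusted p = 0.845) and -0.80 ± 0.11 in the later-numbered pigs (adjusted p = 0.0035, edgeR). The difference between the sets did not pass the test (adjusted p = 0.548, edgeR).

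Of 14 regulators of glycolysis tested, 9 had a higher estimate in CF and 0 passed the test. PFKFB3, which makes the fructose 2,6-bisphosphate that activates phosphofructokinase, had the smallest p. It had 33.5 to 138 CPM in CF (median 68.6) and 28.97 to 44.98 CPM in non-CF pigs (median 36.9), a log2 fold change of 0.94 ± 0.22 (adjusted p = 0.0508, edgeR). It passed with the number set as a term (adjusted p = 0.0468), with median-of-ratios scaling (0.0492), with upper-quartile scaling (0.0427) and with DESeq2 (0.00979), but not without a filter (0.0544), with limma on log2 TPM (0.184) or with limma on log2 per-length levels (0.132). In the earlier-numbered pigs PFKFB3 had a median of 36.9 CPM in both CF and non-CF pigs, with CF pig 1 highest at 129.8 CPM. In the later-numbered pigs it had 68.6 to 138 CPM in CF and 28.97 to 44.98 CPM in non-CF pigs. The log2 fold change was 0.53 ± 0.27 in the earlier- and 1.28 ± 0.20 in the later-numbered pigs (adjusted p = 0.584 and 0.00589), and the difference between the sets did not pass the test (adjusted p = 0.539, edgeR). Of 5 gluconeogenesis genes tested, 4 had a higher estimate in CF. PC, pyruvate carboxylase, which starts glucose synthesis from pyruvate, had 221 to 617 CPM in CF and 152 to 322 CPM in non-CF pigs, 0.61 ± 0.15 on the log2 scale (adjusted p = 0.0636, edgeR). It passed with DESeq2 (adjusted p = 0.00658) and in the later-numbered pigs alone (0.72 ± 0.17, adjusted p = 0.0455, edgeR). It did not pass in the earlier-numbered pigs alone (adjusted p = 0.483) or under the other alternatives, with adjusted p from 0.0570 to 0.121.

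Marker genes of the cells that cortex holds were read beside these results, and their part in them was not tested. All 10 proximal tubule markers were tested, 6 had a higher estimate in CF and their summed level was 8045 to 11719 CPM in WT, 9374 to 13618 CPM in HET and 8655 to 15752 CPM in CF pigs. All 6 proliferation genes had a lower estimate in CF, with a median of -0.29 and none passing the test, and summed to 273 to 446 CPM in WT, 217 to 461 CPM in HET and 232 to 317 CPM in CF pigs. Of 6 markers of the thick limb and distal convoluted tubule tested, 5 had a lower estimate (median -0.22), and they summed to 1454 to 2201 CPM in WT, 1302 to 2383 CPM in HET and 1241 to 1912 CPM in CF pigs. Of 9 erythroid genes 6 were lower (median -0.12), and their sum was 87.2 to 243 CPM in WT, 149 to 209 CPM in HET and 98.3 to 473 CPM in CF pigs. Lists for collecting duct, podocyte, nephron progenitor, endothelium and immune cells had medians of -0.02, 0.09, 0.03, 0.02 and -0.11. Of 11 hypoxia-induced genes outside glycolysis, 6 had a higher and 5 a lower estimate (median 0.01). The immediate early genes, induced within minutes of handling or stress, had a higher estimate in 10 of 10 (median 0.61), with no call. Their summed level had close medians of 109.9 CPM in WT, 119 CPM in HET and 128 CPM in CF pigs, and single pigs reached 722, 268 and 1809 CPM. Skeletal muscle genes summed to 8.26 to 14.7 CPM over all pigs, and ACTA1 had at most 9 counts.

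Spread among the pigs was shared. For each pig, the median over the enzymes of the log2 difference from the mean pig ran from -0.09 to 0.18 in WT, from 0.02 to 0.33 in HET and from -0.61 to 0.14 in CF pigs. CF pigs thus had the widest range, with an SD of 0.23 against 0.12 in non-CF pigs. Pig 6 (CF) was the lowest of all 23 pigs for 7 of the 10 enzymes, and pig 14 (HET) the highest for 4. In CF pigs 5, 6, 8, 10 and 11 all 10 enzymes were below the mean pig, which no non-CF pig showed. In HET pigs 14, 20 and 21 all 10 were above it.

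Pearson's r between the log2 CPM of enzymes was positive for 45 of 45 pairs over the 23 pigs, from 0.16 to 0.95 with a median of 0.62. It passed an adjusted permutation p of 0.05 (Benjamini-Hochberg over the 45 pairs) for 34 of them, each with r of at least 0.44. Over all pairs of genes tested, 49.3% had a positive r and 7.79% an r at least that high, and the median was -0.006. The values of a pig share its library and its scaling factor. GAPDH and ALDOA had r = 0.95 (Spearman's rho 0.91, adjusted permutation p = 5e-05 for r, resting on the smallest p that the resampling can give), r = 0.92 without the 2 pigs farthest from the median, and 0.95 and 0.96 in the earlier- and later-numbered pigs. GPI and ALDOA had r = 0.95 (rho 0.89), and 0.98 and 0.93 within the sets. Consecutive steps were not always close: HK1 and GPI had r = 0.62, which became 0.37 without the 2 farthest pigs. PFKM and PGK1 had the lowest value, r = 0.16 (adjusted permutation p = 0.469).

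HK2 had r from -0.07 to 0.29 with the other 9 in the earlier-numbered pigs and from 0.50 to 0.90 in the later-numbered pigs. The difference between the sets was not tested. Over all 45 pairs the median r was 0.62 in the 13 earlier-numbered and 0.73 in the 10 later-numbered pigs, and 41 pairs were positive in both.

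**Figure D5:**
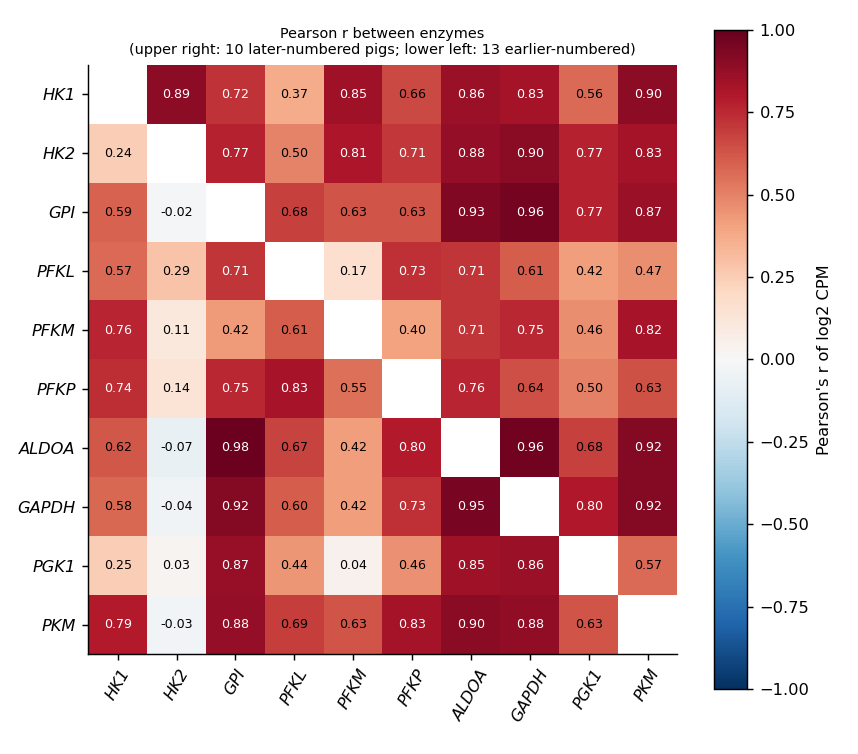
Pearson's r of log2 CPM between each pair of enzymes, in the 10 later-numbered pigs (upper right) and the 13 earlier-numbered pigs (lower left), on a colour scale from -1 to 1. GPI, ALDOA, GAPDH and PKM have r of 0.87 to 0.98 with one another in both sets, and HK2 has higher r in the later-numbered pigs.

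Among the genes outside the 10, those most like the mean of their standardised log2 CPM over the 23 pigs were RPS6KA1 (r = 0.89), PGAM1 (0.89), MIF (0.88), ENO1 (0.87) and TPI1 (0.85). PGAM1, ENO1 and TPI1 are the glycolysis enzymes for phosphoglycerate mutase, enolase and triose phosphate isomerase. For single enzymes the most similar of all genes tested was GAPDH for ALDOA and ALDOA for both GAPDH and GPI (r = 0.95, 0.95 and 0.95). It was TPI1 for PGK1 (0.89), ALDOC for PKM (0.90), PPP2R1A for PFKL (0.92), IRAK1 for PFKP (0.87), EPS15L1 for HK1 (0.85), ENTPD6 for PFKM (0.83) and LOC100621287 for HK2 (0.88). These are the highest values over the genes tested, given as descriptions.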

How the data were processed

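Reads of 23 libraries were pseudoaligned to Sscrofa11.1 transcripts by the authors with kallisto. For 77689 transcripts the authors deposited estimated counts, which are not normalized, and TPM, which divide by effective length and sum to a constant per library. Effective lengths, recorded as score values, were also deposited by the authors. One 282-base RNA took 421321 to 532330 TPM of each library, so per-length levels were built from counts instead. Estimated counts were summed per symbol and rounded. edgeR 4.0.16 (TMM, filterByExpr, quasi-likelihood test, Benjamini-Hochberg) was run on all 20921 genes, for CF against non-CF and, in a fit of the 3 labels, pairwise. Log2 CPM used a prior count of 2. Alternatives used DESeq2 1.42.0, limma 3.58.1 on log2(TPM + 0.5) and on log2(per-length level + 0.5), other scalings, no filter, an exact Mann-Whitney test (scipy) and each pig left out. The tests were tested on simulated data. Permutation tests drew 100000 resamples or were exact. A count of 0 allows up to 3 counts, 0.0567 to 0.0912 CPM, for counting error only. No 2 libraries were duplicates (lowest chi-square per gene 22.9 over 253 pairs).

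The enzymes, gene lists and the division by pig number were chosen with earlier results of these data known. Named genes are the 10 enzymes, CFTR, listed pathway genes with an adjusted p under 0.05 or among the 5 smallest p, isozymes needed for order, and the genes of highest r. Coordinates and exon sequences are from RefSeq's annotation of Sscrofa11.1. Some isozymes of the pathway are not reported here.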

Additional observations from a re-analysis of the deposited data

How the results depend on the processing

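No paired analysis was possible because the labels give no litter. Of 1228 alternative values of single enzymes, 1201 kept both direction and side of the limit. Most came from fits with a pig left out, which shared nearly all libraries with the fits of all pigs. No enzyme had passed in the fits of all pigs, so this count cannot show that the results are stable. The 13 values that crossed the limit were all of HK1, PFKM or PKM, in CF against non-CF or CF against WT pigs. Another 14 changed direction.

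For CF against non-CF pigs 3 enzymes (HK1, PFKM and PKM) passed with DESeq2 and 3 in the later-numbered pigs alone. No enzyme passed the exact Mann-Whitney test, the kind of test that the study's methods name, where 0.22% of all genes passed. Its lowest adjusted p were 0.0963 for PFKM and 0.142 for HK1. In edgeR, leaving out 1 pig gave 0 to 3 (3 without CF pig 4, 1 without HET pig 13), where 0.0956% to 0.97% of all genes passed. For CF against WT pigs DESeq2 and limma on log2 TPM passed 1 each, PFKM and HK1, and leaving out 1 pig gave 0 to 1 (HK1 without CF pig 4). Of the further enzymes, where 2 had passed, no filter passed 1 (ENO3), limma on log2 TPM 1 (ALDOC), limma on log2 per-length levels (chosen after seeing the data) 1 (ENO3) and the later-numbered pigs alone 1, which was LDHA and neither of those 2. The earlier-numbered pigs alone passed 0. Of all genes, 2.28% passed in the later- and 0.0% in the earlier-numbered pigs. With no filter and with limma the share of all genes was not counted for CF against non-CF, so those counts have no background. In edgeR, leaving out 1 pig passed 0 to 2 of the further enzymes, where 0.0956% to 0.97% of all genes passed. It passed 0 without any one of CF pigs 5, 6, 7, 8 and 10, HET pigs 14, 20 and 21 and WT pigs 12, 16, 17, 18 and 22. Without CF pig 9 or 11, 1 passed.

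HK2 turned to 0.044 in the earlier-numbered pigs. In CF against WT, PGK1 turned to -0.029 with limma on log2 TPM, where the median of all genes moved by -0.07. With 1 pig left out, PGK1 ran from -0.00039 to 0.15 (lowest without WT pig 12), GPI from -0.084 to 0.015 (highest without CF pig 6) and PFKL from -0.12 to 0.0028 (highest without WT pig 16). In HET against WT, limma on log2 TPM turned HK2 to -0.044, PFKL to -0.039 and PKM to -0.036. With 1 pig left out, HK2 ran from -0.095 to 0.23 (negative without HET pig 20, HET pig 21 or WT pig 12) and PFKP from -0.10 to 0.010 (highest without HET pig 19). For PKM the PARP6-product transcripts alone, also chosen after seeing the data, gave 0.00053 in CF against HET and -0.038 in HET against WT. The cause of these changes was not tested.

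The downstream-exon share differed by -1.09 to -0.51 percentage points with 1 pig left out. Between 27 and 37 enzyme pairs passed then, 26 on the log2 TPM scale and 31 after the means of labels and number sets were removed (chosen after seeing the data). HK2, at 53 to 169 counts, had the lowest depth of the 10.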
